A study of Mus musculus with 6 samples.

Results

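Hand2 and 9 genes of the fibroblast growth factor (FGF) family, the ligand genes Fgf1, Fgf2, Fgf7, Fgf9, Fgf10 and Fgf18 and the receptor genes Fgfr1, Fgfr2 and Fgfr3, were followed in the uterus of pregnant mice. They were taken by symbol, and all 10 were found among the 21936 genes listed in each library. RNA came from whole uterus on gestational day 4, with the plug counted as day 1, from females 6 to 8 weeks old at mating. The labels give 2 genotypes of Mettl3, f/f with 3 libraries and d/d with 3, and no other difference. Mettl3 encodes the methyltransferase that makes N6-methyladenosine. An f/f genotype usually means floxed and d/d deleted alleles on both chromosomes, but the Cre driver, the deleted exons and any pooling of animals are details that the sources used here do not give. Values are FPKM, fragments scaled to gene length and to the mapped fragments of the library, so levels of different genes can be compared within a library.

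HAND2 is a basic helix-loop-helix transcription factor that the uterine stroma makes in response to progesterone. FGF ligands made by the stroma reach FGF receptors on the overlying epithelium, where they drive proliferation through the RAS and ERK kinases, and HAND2 is known for holding back stromal FGF genes before implantation. Splice forms of the receptors decide which ligands bind, with the IIIb forms found mainly in epithelium and the IIIc forms mainly in mesenchyme. FGF signalling needs heparan sulfate as a co-receptor and induces its own inhibitors of the Sprouty and dual-specificity phosphatase families. Gene-level FPKM do not separate splice forms.

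The 3 f/f libraries were closer to one another (Spearman 0.984 to 0.988, across genes) than the labelled d/d libraries were (0.951 to 0.965). Between the genotypes the correlations were 0.945 to 0.968. By this measure d/d replicate 1 was closer to each f/f library (0.967 to 0.968) than to d/d replicates 2 and 3 (0.962 and 0.965). Library totals were 534944 to 625491 FPKM. How many fragments they hold is unknown, but the 1-fragment step of low genes put every library between 0.936 and 1.010 times the depth of f/f replicate 1. Mettl3 was at 26.3 to 30.3 FPKM in f/f and 30.1 to 46.5 in labelled d/d libraries. A whole-gene value does not check the deletion of single exons, so every direction rests on the labels. The labels do not say that replicates came from separate animals, so p-values reflect only how these libraries vary, which may be technical.

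The promoter of Hand2 is shown because Hand2 is the transcription factor of the group and differed between the genotypes. It is the 250 bases before the RefSeq start (GRCm38.p6, chr8:57320733-57320982, plus strand). Capitals mark the 2 matches to the general E-box CANNTG, the type of site that basic helix-loop-helix proteins bind. CANNTG reads the same on both strands, and every CATCTG is also a CANNTG.
Hand2: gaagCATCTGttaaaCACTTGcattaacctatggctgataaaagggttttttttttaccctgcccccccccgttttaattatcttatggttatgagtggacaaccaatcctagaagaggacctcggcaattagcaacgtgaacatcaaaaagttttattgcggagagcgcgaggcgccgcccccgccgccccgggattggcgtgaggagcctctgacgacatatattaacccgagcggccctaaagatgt

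RefSeq promoters were found for 8 of the 10 genes, with 2 for Fgfr3. CANNTG stood in 5 of these 9 windows, those of Hand2, Fgf7, Fgf10 and Fgfr2 and 1 of Fgfr3, against 66.2% of the 32851 windows of all genes. CATCTG, searched on both strands, stood in 2, those of Hand2 and Fgf10, against 14.4% of all windows. The match of Fgf10 is shown in capitals for comparison with that of Hand2 (GRCm38.p6, chr13:118714551-118714580, plus strand).
Fgf10: agcttagggtttCAGATGtcccaccgccgt
These matches describe letters within the windows, and no binding was measured.

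Hand2 and Fgf1 were lower in the labelled d/d uteri, and no other member passed the test over all genes. A gene was called changed at a limma adjusted p under 0.05 over 12979 genes with at least 1 FPKM in at least 3 of the 6 libraries. Of the 10 members 9 entered the test, and Fgf9 lay below the filter. Of these 9, 2 were lower and 0 higher, where 3.81% of all genes tested were lower, 3.49% were higher and 7.3% were called in all. The genotypes did not overlap in 4 of the 9, with 2 higher and 2 lower in d/d, where 35.9% of all genes tested did not overlap (18.1% higher and 17.8% lower). Without f/f replicate 1, 2 or 3, 0 members were called by limma, where 0%, 0.231% and 0.855% of all genes were called. Without d/d replicate 1, 4 members were called, Fgf2 higher and Hand2, Fgf1 and Fgfr2 lower, where 10.2% of all genes were called. Log2 fold changes compare d/d with f/f after adding 1 to each FPKM, so they understate the change of genes with low values, and folds are ratios of mean FPKM. Sets of 3 values follow the order of replicates 1, 2 and 3.

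**Figure D1:**
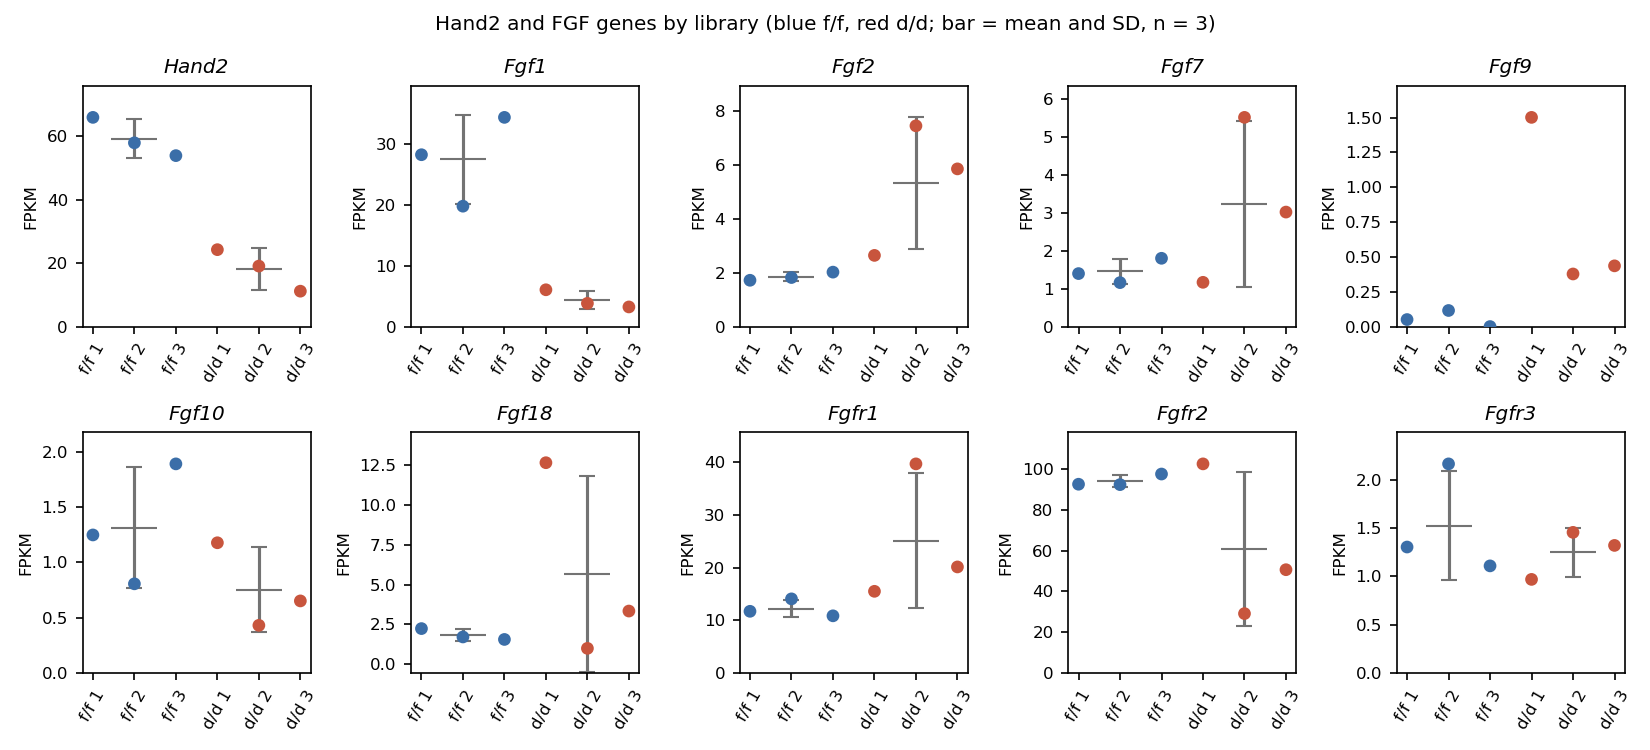
FPKM of the 10 genes (vertical axes) in each of the 6 libraries (horizontal axes), f/f in blue and d/d in red, with the mean and SD of each genotype (n = 3) in gray. Hand2 and Fgf1 are lower in every d/d than in every f/f library, and Fgf9, which is listed at 0 in f/f replicate 3, is drawn without a mean.

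Hand2 (ENSMUSG00000038193, chromosome 8, 57320983 to 57324517, plus strand, protein coding, GRCm38) measured 65.9, 57.8 and 53.8 FPKM in the f/f libraries against 24.2, 19.0 and 11.1 in the d/d libraries. The genotypes did not overlap, and d/d replicate 3 was the lowest. The mean fell from 59.2 ± 6.13 to 18.1 ± 6.58 FPKM (SD, n = 3 each), 3.26-fold lower in d/d. The log2 fold change was -1.71 (SE 0.27, 95% CI -2.38 to -1.05, limma adjusted p = 0.0250). The exact two-sided permutation test gave p = 0.1, the smallest value that 3 against 3 libraries allow. Without f/f replicate 1, 2 or 3 the log2 fold change was -1.63, -1.73 or -1.78, but the adjusted p rose to 0.127, 0.118 and 0.0928. Hand2os1, on the other strand, shares 461 of the exonic bases of Hand2 and was not analysed here. The sources used here do not say whether strand was used, so fragments of that stretch cannot be told apart. In bulk tissue, fewer cells of a type and less RNA per cell cannot be told apart either.

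Hand2 was set against the markers of the cells that express it, a comparison added after the data were seen. As a share of the summed FPKM of 12 stroma markers (Pdgfra, Vim, Dcn, collagen genes and others), Hand2 stood at 1.76%, 1.48% and 1.504% in f/f and at 1.11%, 0.353% and 0.290% in d/d. The genotypes did not overlap on this scale either, and the d/d library nearest to f/f was replicate 1. The sum is weighted to the most abundant markers, among them Col3a1 and Dcn, so this share depends on the markers chosen. By mean, Pdgfra and Vim were themselves 2.45-fold and 2.27-fold lower in d/d, while Lum and Dcn were 2.29-fold and 1.61-fold higher. Hand2 was not set against single markers. The stroma markers summed to 3579 to 3902 FPKM in f/f libraries, compared with 2185, 5386 and 3847 in d/d, so by sum only d/d replicate 1 lay below the f/f range. The median over the 12 markers, in log2 against the f/f mean, was -0.0954 to 0.0550 in f/f and -0.867, 0.570 and -0.322 in d/d. By median, d/d replicates 1 and 3 were both below the f/f range. None of the 12 passed the limma test (2 at an unadjusted p under 0.05, Pdgfra and Vim, both with lower values in every d/d library). Without d/d replicate 1, 2 of them were higher, where 1319 of the 12979 genes tested were called. Without d/d replicate 2, 3 of them were lower, where 1367 of all genes were called. Leaving out d/d replicate 3 or f/f replicate 1, 2 or 3 gave 0 calls among them, as did the replicate block. Weights by genotype gave 1, lower in d/d. As a share of 9 smooth muscle markers, Hand2 overlapped between the genotypes, at 0.949% to 2.08% in f/f and at 2.09%, 0.912% and 0.231% in d/d. The smooth muscle markers summed to 2582 to 6095 FPKM in f/f and to 1161, 2088 and 4816 in d/d, so d/d replicates 1 and 2 were below and replicate 3 within the f/f range. Of these markers 2, Smtn (limma adjusted p = 0.0499, and 0.0695 with no filter) and Synpo2, were lower. No marker of either list was at 0 in all libraries.

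**Figure D2:**
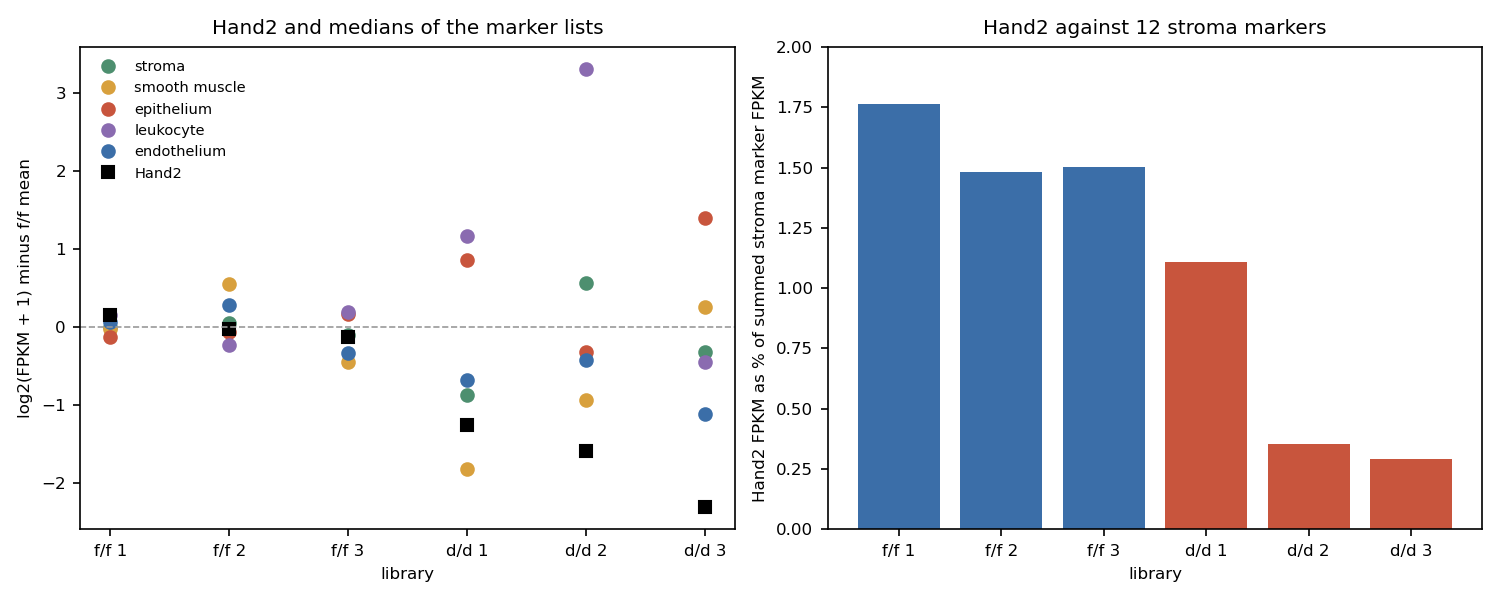
Left, Hand2 (squares) and the median over the genes of 5 marker lists (circles), as log2(FPKM + 1) minus the f/f mean, by library. Right, Hand2 FPKM as a percent of the summed FPKM of 12 stroma markers, with f/f in blue and d/d in red; bars are single libraries, from 1.48% to 1.76% in f/f and from 0.290% to 1.11% in d/d.

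Of the ligand genes, Fgf1 was by far the most abundant in f/f uteri and the one that fell. Fgf1 (ENSMUSG00000036585, chromosome 18, 38838672 to 38929470, minus strand, protein coding) encodes acidic FGF, a ligand that can bind all FGF receptors. It measured 28.2, 19.8 and 34.4 FPKM in the f/f libraries against 6.04, 3.81 and 3.22 in the d/d libraries. Every d/d library was under every f/f library. The mean fell from 27.4 ± 7.32 to 4.36 ± 1.49 FPKM (SD, n = 3 each), 6.30-fold lower, with a log2 fold change of -2.41 (SE 0.28, 95% CI -3.08 to -1.74, adjusted p = 0.0117 by limma and p = 0.1 by the exact permutation test). Without f/f replicate 1, 2 or 3 it was -2.37, -2.62 or -2.24, with adjusted p = 0.0843, 0.0545 and 0.0580. No exon of another gene overlapped those of Fgf1 in the GENCODE basic set. Arhgap26, whose gene body spans Fgf1 on the other strand, was at 0.929 to 2.69 FPKM in all 6 libraries.

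Fgf2 (chromosome 3, 37348477 to 37410106), which encodes basic FGF, had higher values in d/d without passing the test. It measured 1.72, 1.82 and 2.02 FPKM in the f/f libraries against 2.64, 7.44 and 5.85 in the d/d libraries. The groups did not overlap, but d/d replicate 1 lay close to the f/f range. The mean was 1.85 ± 0.154 FPKM in f/f and 5.31 ± 2.45 in d/d (SD, n = 3 each), 2.87-fold higher, with a log2 fold change of 1.06 (SE 0.32, 95% CI 0.28 to 1.84, adjusted p = 0.0991 by limma and p = 0.1 by the exact permutation test). With d/d replicate 1 left out it was 1.42 and passed (adjusted p = 0.0176). Fgf2 shares 640 exonic bases with Nudt6 on the other strand, which stood at 4.67 to 7.03 FPKM in f/f and 3.92 to 5.05 in d/d.

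Fgf7 and Fgf10 encode stromal ligands of the epithelial IIIb form of FGFR2, and neither passed. Fgf7 (chromosome 2, 126034658 to 126091185) measured 1.40, 1.16 and 1.80 FPKM in the f/f libraries against 1.17, 5.51 and 3.02 in the d/d libraries. It was thus above the f/f range in d/d replicates 2 and 3 and within it in replicate 1 (log2 fold change 0.66, 95% CI -0.32 to 1.63, adjusted p = 0.343 by limma and p = 0.3 by the exact permutation test). The log2 fold change was 1.07 without d/d replicate 1 and 0.28 without d/d replicate 2. Fgf10 (chromosome 13, 118714699 to 118792573) measured 1.25, 0.807 and 1.89 FPKM in the f/f libraries against 1.18, 0.431 and 0.652 in the d/d libraries. Its d/d replicates 2 and 3 were below every f/f library and replicate 1 was not (log2 fold change -0.40, 95% CI -1.03 to 0.23, adjusted p = 0.378 by limma and p = 0.2 by the exact permutation test), and the log2 fold change was -0.22 without f/f replicate 3. It passed the filter with 3 libraries at or above 1 FPKM, so its level lay near the limit.

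Fgf9 and Fgf18 encode ligands that act mainly on the IIIc forms, and both were highest in d/d replicate 1. Fgf18 (chromosome 11, 33116970 to 33147400) measured 2.23, 1.71 and 1.55 FPKM in the f/f libraries against 12.7, 0.989 and 3.33 in the d/d libraries. The d/d values thus lay on both sides of the f/f range (log2 fold change 0.80, 95% CI -0.80 to 2.40, adjusted p = 0.482 by limma and p = 0.5 by the exact permutation test), and leaving out d/d replicate 1 brought the log2 fold change to 0.06, and leaving out d/d replicate 2 brought it to 1.45 (adjusted p = 0.118). Fgf9 (chromosome 14, 58070671 to 58112854) measured 0.0503 and 0.115 FPKM in replicates 1 and 2 of f/f, was listed at 0 in f/f replicate 3, and was at 1.502, 0.378 and 0.436 in d/d. All 3 d/d values were above the f/f values. With no filter its log2 fold change was 0.69 and was not called (limma adjusted p = 0.165). No fold is given because an exact 0 in such a table can come from an estimate that failed.

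**Figure D3:**
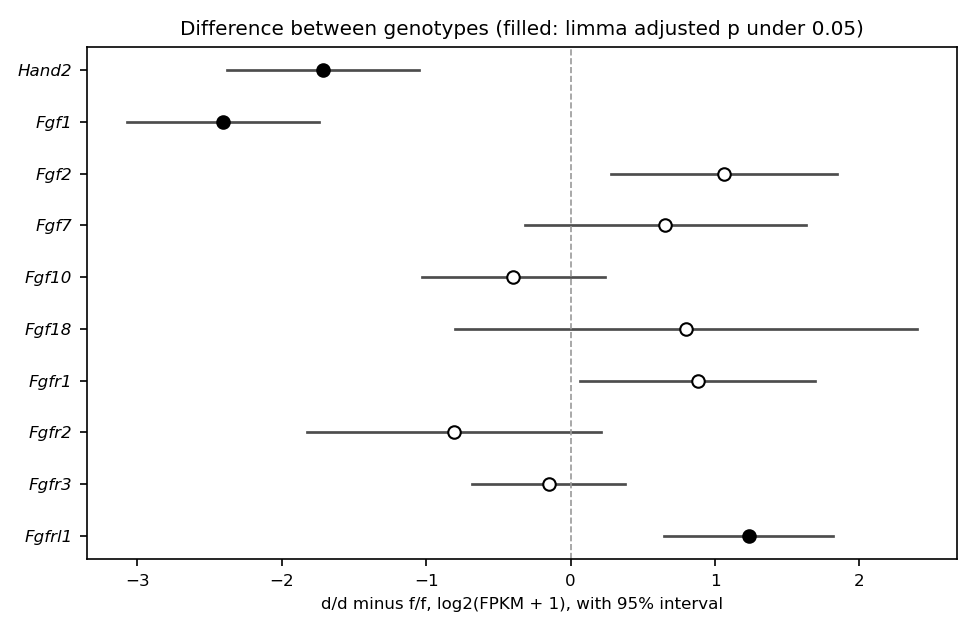
Difference between the genotypes (horizontal axis, d/d minus f/f in log2(FPKM + 1)) for the 9 tested genes and Fgfrl1, with 95% CIs from limma over 3 against 3 libraries. Filled circles mark an adjusted p under 0.05: Hand2 at -1.71, Fgf1 at -2.41 and Fgfrl1 at 1.23.

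The fall of Fgf1 and the levels of the others left a different mix of ligand RNA in the labelled d/d uteri. Fgf1 made up 80.9%, 77.9% and 82.6% of the summed FPKM of the 6 ligand genes in f/f and 24.0%, 20.5% and 19.5% in d/d. This share was close among the libraries of a genotype, whereas the rest of the mix differed among the d/d libraries. In d/d replicate 1 Fgf18 held the largest share, 50.3%. In d/d replicates 2 and 3 Fgf2 held the largest share, 40.1% and 35.4%, followed by Fgf7 in replicate 2 (29.7%) and by Fgf18 in replicate 3 (20.2%). Fgf2 had held 4.85% to 7.16% in f/f. The 6 ligands summed to 34.9, 25.4 and 41.6 FPKM in f/f and to 25.2, 18.6 and 16.5 in d/d, and the 5 without Fgf1 to 6.64, 5.60 and 7.26 against 19.1, 14.8 and 13.3. With Fgf1 the sums were lower in every d/d library, and without it they were higher in every d/d library. The shares and sums were added after the data were seen and are given without a test.

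**Figure D4:**
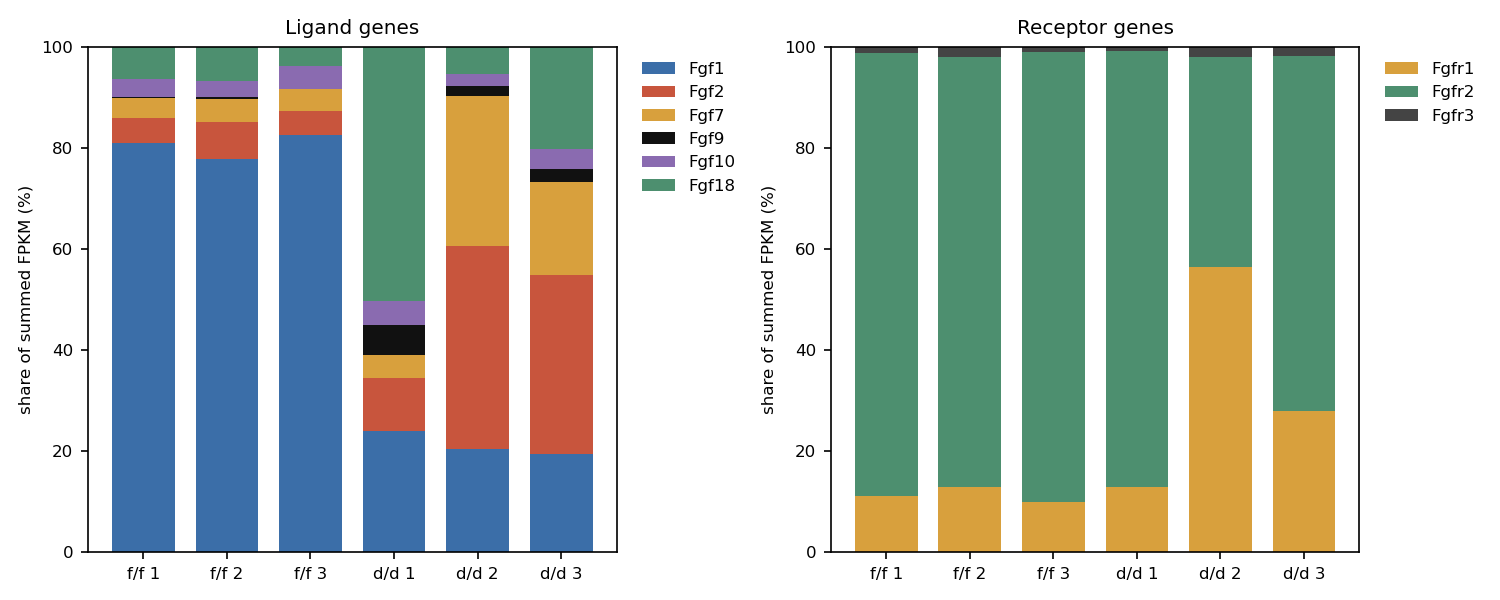
Share of each gene (percent of the summed FPKM, vertical axes) among the 6 ligand genes (left) and among Fgfr1, Fgfr2 and Fgfr3 (right) in each library. Fgf1 holds 77.9% to 82.6% of the ligand sum in f/f and 19.5% to 24.0% in d/d, and Fgfr2 holds 41.5% of the receptor sum in d/d replicate 2 against 85.0% to 89.1% in f/f.

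Fgfr2 was the main receptor gene in f/f uteri, and no receptor member passed the test. Fgfr2 (chromosome 7, 130162451 to 130266808) encodes the receptor whose IIIb form is the epithelial receptor of FGF7 and FGF10. It measured 92.6, 92.4 and 97.6 FPKM in the f/f libraries against 103, 29.2 and 50.7 in the d/d libraries. The d/d libraries thus differed among themselves, with replicate 1 above and replicates 2 and 3 below all f/f libraries. The means were 94.2 ± 2.94 and 60.8 ± 37.7 FPKM (SD, n = 3 each), which gave a log2 fold change of -0.81 (95% CI -1.82 to 0.21, adjusted p = 0.277 by limma and p = 0.4 by the exact permutation test). Without d/d replicate 1 it was -1.27 and passed (adjusted p = 0.0393), and without d/d replicate 2 it was -0.38 (adjusted p = 0.445). Ctbp2, on the same strand, shares 314 exonic bases with an annotated transcript of Fgfr2 and stood at 30.1 to 55.3 FPKM in the 6 libraries.

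Fgfr1 (chromosome 8, 25518759 to 25575718), the main receptor gene of mesenchyme, measured 11.7, 14.1 and 10.9 FPKM in the f/f libraries against 15.5, 39.7 and 20.1 in the d/d libraries. The groups did not overlap, with d/d replicate 1 just above and d/d replicate 2 far above the f/f range. The means were 12.2 ± 1.67 and 25.1 ± 12.8 FPKM (SD, n = 3 each), 2.06-fold higher in d/d, and the log2 fold change, 0.88 (SE 0.34, 95% CI 0.07 to 1.69), was not called (adjusted p = 0.160 by limma and p = 0.1 by the exact permutation test). It was 0.51 without d/d replicate 2. Fgfr3 (chromosome 5, 33721724 to 33737068) was low, with 1.31, 2.17 and 1.11 FPKM in the f/f libraries against 0.970, 1.46 and 1.32 in the d/d libraries. Its groups overlapped (log2 fold change -0.15, 95% CI -0.68 to 0.38, limma adjusted p = 0.697), and without f/f replicate 2 the difference was 0.02.

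In f/f libraries the order of the receptor genes by FPKM was Fgfr2, Fgfr1 and Fgfr3 with no overlap, and Fgfr2 stood 6.56 to 8.99 times above Fgfr1. The ratio was 6.61 in d/d replicate 1, 0.735 in replicate 2 and 2.52 in replicate 3, so that Fgfr1 led in replicate 2. As a share of the summed receptor FPKM, Fgfr2 averaged 87.3% ± 2.04 in f/f and 66.0% ± 22.6 in d/d (SD, n = 3 each), a difference of -21.3 percentage points. In size the difference was smaller than the SD of the d/d libraries, and it was -9.06 without d/d replicate 2. The exact permutation test of the 2 means gave p = 0.2 (0.3 adjusted over the 3 shares), where 0.1 is the smallest value possible. Fgfr1 averaged 11.3% ± 1.54 and 32.5% ± 22.1 of the sum (n = 3 each, exact permutation p = 0.1, adjusted p = 0.3), a difference of 21.1 points that was 9.15 without d/d replicate 2.

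Markers of other cell types also differed among the libraries in which these genes were high or low. Summed epithelium markers (10 genes, Krt8, Epcam, Cdh1 and others) ranged from 1266 to 1470 FPKM in f/f libraries, compared with 2103, 886 and 2985 in d/d. Krt7 and Epcam were higher in every d/d library and by test (limma adjusted p = 0.0363 and 0.0452, and 0.0574 and 0.0680 with no filter). The other 8 were not called, and Cldn3 was lower in every d/d library (limma adjusted p = 0.266). It measured 390, 76.3 and 294 FPKM there, against 433 to 483 in f/f. Fgfr2 was lowest in the d/d library with the lowest epithelium sum. Against the epithelium sum it stood at 6.64% to 7.30% in f/f and at 4.88%, 3.29% and 1.70% in d/d, below f/f in every d/d library. This ratio depends on the markers summed, which include Krt7 and Epcam, called higher, and Cldn3, lower in every d/d library. Krt19 alone measured 395, 143 and 772 FPKM in d/d against 136 to 227 in f/f. Fgfr1, Fgf2 and Fgf7 were highest in d/d replicate 2, which also had the highest stroma sum and by far the highest leukocyte sum. The 11 leukocyte markers summed to 193 to 312 FPKM in f/f and to 927, 5243 and 234 in d/d. Lyz2 alone was at 3738 FPKM in d/d replicate 2. Of the 9 tested, Cd68 was higher by test and 8 were not called. Among these 8, Ncr1 was lower in every d/d library, at 0.147 to 1.05 against 2.49 to 6.88 FPKM (limma adjusted p = 0.0631). Adgre1 was higher in every d/d library, at 9.79 to 80.4 against 5.54 to 8.27 FPKM (limma adjusted p = 0.186). The others overlapped between the genotypes. Against the stroma sum, Fgfr1 stood at 0.303% to 0.361% in f/f and at 0.710%, 0.737% and 0.523% in d/d, and Fgf2 at 0.0459% to 0.0564% and 0.121%, 0.138% and 0.152%. Both ratios were higher in every d/d library, and they too depend on the markers summed. Fgf1 against the epithelium sum stood at 1.56% to 2.34% in f/f and at 0.108% to 0.430% in d/d. The epithelium sum itself was above the f/f range in d/d replicates 1 and 3, and these data do not show which cells make Fgf1. Of the markers of other cells, 2 of 4 tested for glands (Spink1 and Wfdc3, of 6 listed) and 1 of 8 for endothelium (Cdh5) were called lower. For mesothelium (4 listed, 2 tested) Wt1 was called lower (limma adjusted p = 0.0392). Upk3b, the other one tested, was higher in every d/d library and not called (limma adjusted p = 0.108). For ovary and oviduct, 0 of 3 tested (of 7 listed) were called by limma (1 at an unadjusted p under 0.05). Of all genes tested, 7.3% were called. In 5 of the 8 endothelium markers every d/d value was below every f/f value, where this held for 17.8% of all genes tested. With no filter the calls of Cd68 and Cdh5 were also lost (limma adjusted p = 0.0510 and 0.0519), as was that of Wt1, and 1 gland call was left. Leaving out f/f replicate 1, 2 or 3 ended the calls of Krt7, Epcam, Cd68, Cdh5 and Wt1, and left 0, 1 and 1 gland calls. The part of these cells in the levels of the members was not tested. The ratios were added after the data were seen.

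The remaining ligand genes were mostly listed at 0 or under the filter, and the FGF decoy receptor gene Fgfrl1 was higher. Of 16 other Fgf ligand genes, 7 were listed at 0 in all 6 libraries (Fgf4, Fgf5, Fgf6, Fgf8, Fgf15, Fgf20 and Fgf23) and 2 entered the test, with 0 called by limma and both at an unadjusted p under 0.05. These were Fgf11 and Fgf12, which encode intracellular FGF-like proteins. Fgf11 was at 3.35 ± 0.406 FPKM in f/f and 2.09 ± 0.591 in d/d (limma adjusted p = 0.172), and Fgf12 at 1.39 ± 0.294 and 3.35 ± 1.54 (adjusted p = 0.172, and 0.0298 without d/d replicate 1; n = 3 each). The others, Fgf3, Fgf13, Fgf14, Fgf16, Fgf17, Fgf21 and Fgf22, were under the filter. Fgf16, of the same subfamily as Fgf9, measured 0.120, 0.0396 and 0.0397 FPKM in the f/f libraries against 2.04, 0.123 and 0.427 in the d/d libraries, again highest in replicate 1. Fgf13 was at 0.227 to 1.23 FPKM over all 6 libraries.

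Fgfrl1 encodes a receptor that binds FGF but lacks the kinase domain. It measured 9.41, 13.9 and 8.14 FPKM in the f/f libraries against 23.1, 21.8 and 32.6 in the d/d libraries. All d/d libraries were above all f/f libraries. It rose 2.46-fold (log2 fold change 1.23, SE 0.24, limma adjusted p = 0.0374, n = 3 each). The call was lost without f/f replicate 1, 2 or 3 (adjusted p = 0.159, 0.0994 and 0.132), without d/d replicate 1 or 3 (0.0530 and 0.0573), with no filter (0.0566) and with weights by genotype (0.0778). Fgfr4, under the filter, was at 0.181 to 0.244 FPKM in f/f and at 0.0374 to 0.0585 in d/d, and with no filter it was called lower (limma adjusted p = 0.0425). The Klotho co-receptor genes Kl and Klb were at or under 0.137 FPKM in every library. The FGF-binding protein gene Fgfbp3 rose from 1.61 ± 0.0738 to 3.94 ± 0.723 FPKM (n = 3 each, log2 fold change 0.91, limma adjusted p = 0.0347). Without f/f replicates 1, 2 and 3 its adjusted p was 0.157, 0.154 and 0.120, and it was 0.0527 and 0.0547 without d/d replicates 1 and 3. Fgfbp1 was at or under 0.260 FPKM.

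Of 16 adaptor and kinase genes that carry the FGF signal inside the cell, all were tested and 0 were called by limma, with 5 at an unadjusted p under 0.05, a level that 26.7% of all genes tested reached. Their median log2 fold change was -0.00, against 0.02 over all genes tested. The lowest p belonged to Gab1, a docking protein gene, at 10.5 to 11.5 FPKM in f/f and 6.07 to 7.68 in d/d (limma adjusted p = 0.0617). Braf stood at 4.76 to 8.97 FPKM in d/d against 10.3 to 11.5 in f/f (limma adjusted p = 0.121), and Frs2, the substrate that links the receptors to RAS, at 10.2 to 12.03 against 13.2 to 15.8 (adjusted p = 0.139). Map2k1, which encodes the kinase MEK1, was at 34.0 to 51.5 against 26.2 to 28.8 FPKM (adjusted p = 0.131). Over the list, 7 of the 16 did not overlap, where 35.9% of all genes did not, and these 4 are among them.

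Among 20 feedback and target genes of FGF and ERK signalling, 17 were tested, 1 was higher and 0 lower, with a median log2 fold change of 0.38. In 8 of the 17 the genotypes did not overlap, 7 of them higher and 1 lower in d/d, where 35.9% of all genes tested did not overlap (18.1% higher and 17.8% lower). The one called was Flrt2, which encodes a membrane protein of a family that binds FGF receptors. It measured 2.27, 2.79 and 2.05 FPKM in the f/f libraries against 5.55, 9.75 and 10.9 in the d/d libraries. All d/d values were above the f/f values, and it rose 3.70-fold (log2 fold change 1.49, SE 0.26, limma adjusted p = 0.0288, n = 3 each). Its adjusted p was 0.137, 0.118 and 0.114 without f/f replicates 1, 2 and 3.

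Dusp6 and Dusp4, which encode phosphatases of ERK, were higher in every d/d than in every f/f library without passing, whereas Dusp5 overlapped. Dusp6 measured 15.6, 19.4 and 12.6 FPKM in the f/f libraries against 21.4, 34.1 and 27.1 in the d/d libraries (log2 fold change 0.75, limma adjusted p = 0.0963). Dusp4 stood at 0.495, 0.692 and 0.402 against 2.68, 7.30 and 1.61 FPKM (adjusted p = 0.0859). Both were highest in d/d replicate 2. Ccnd1, the cyclin D1 gene, ranged from 25.5 to 30.3 FPKM in f/f and from 33.8 to 60.3 in d/d (adjusted p = 0.104). The ERK inhibitor gene Spred2 ranged from 8.40 to 10.4 and from 11.03 to 18.0 FPKM (adjusted p = 0.124). These also did not overlap, and both were highest in d/d replicate 3. Ccnd1 and Spred2 passed without d/d replicate 2 (adjusted p = 0.0268 and 0.0285), and Dusp4 without d/d replicate 3 (0.0495). The count of called genes in the list was 3 without d/d replicate 2 and 3 without d/d replicate 3. Over all 12979 genes tested, 1367 and 1005 were called in these fits. The count in the list was 1 without d/d replicate 1, and 0 without f/f replicate 1, 2 or 3 and with the replicate block. The Sprouty genes Spry1, Spry2 and Spry4 overlapped between the genotypes, as did the ETS factor gene Etv5, at 4.58 to 7.96 and 4.88 to 8.83 FPKM. Its relative Etv4 measured 1.16, 0.781 and 1.92 FPKM in the f/f libraries against 2.06, 7.52 and 2.11 in the d/d libraries, higher without overlap and not called (adjusted p = 0.236).

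**Figure D5:**
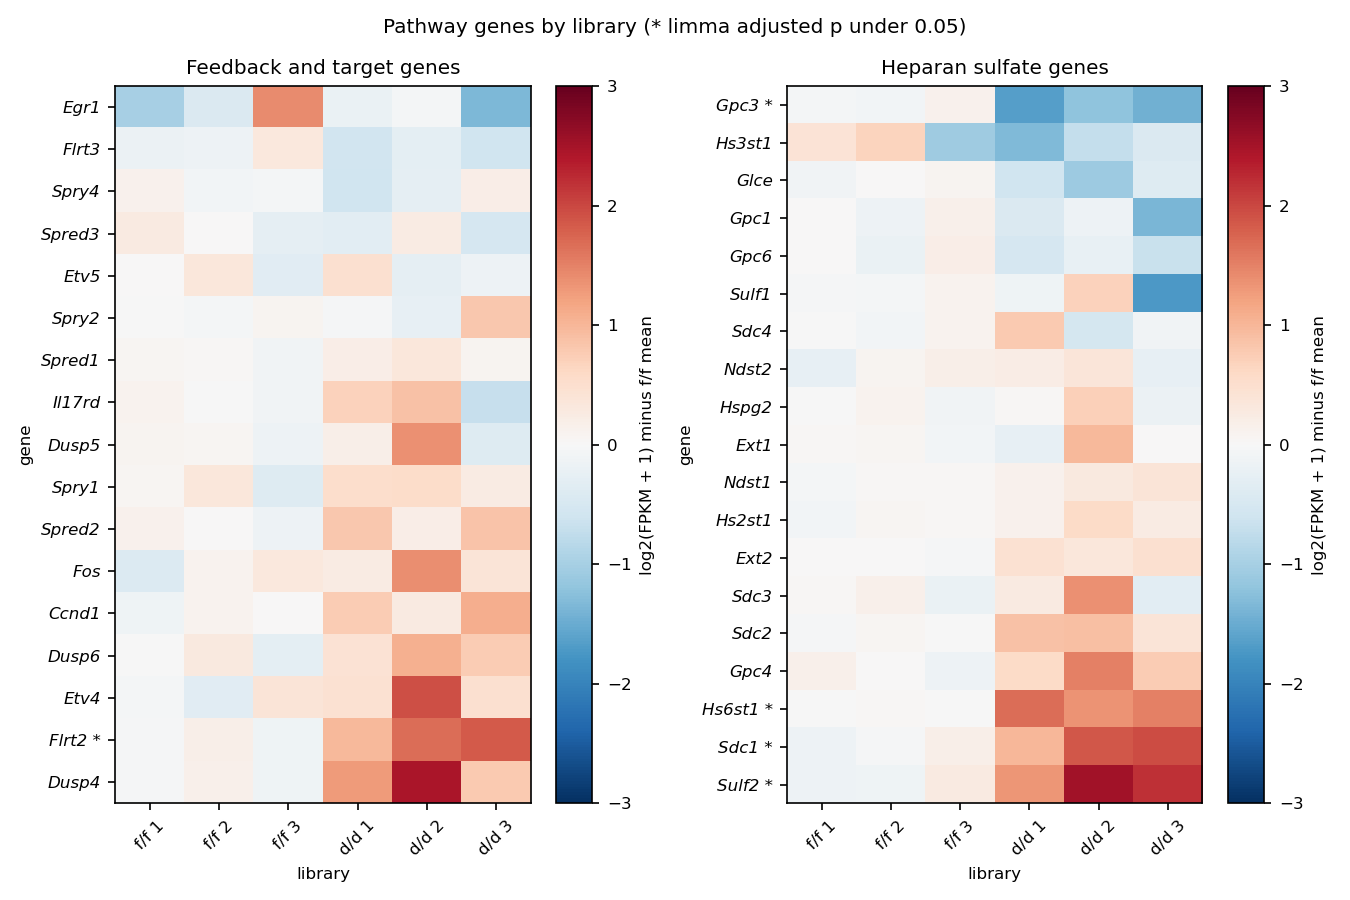
Colors give log2(FPKM + 1) minus the f/f mean for the tested feedback and target genes (left, 17 genes) and heparan sulfate genes (right, 19 genes) in each library, sorted by the difference between genotypes. Stars mark limma adjusted p under 0.05: Flrt2 on the left, and Hs6st1, Sulf2 and Sdc1 (higher) and Gpc3 (lower) on the right.

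Among the lists of FGF signalling genes, that of heparan sulfate held the most calls. Of 20 listed, 19 were tested, with 3 called higher, 1 called lower and 15 not called (7.3% of all genes were called), with a median log2 fold change of 0.24. Hs6st1, which encodes an enzyme that adds sulfate to the heparan chain, measured 19.0, 19.7 and 19.1 FPKM in the f/f libraries against 63.4, 50.3 and 56.7 in the d/d libraries. The libraries of each genotype were close to one another and the genotypes did not overlap. It rose 2.95-fold (log2 fold change 1.51, SE 0.12, limma adjusted p = 0.00644, n = 3 each). The call held without f/f replicate 3 (adjusted p = 0.0367) and was lost without f/f replicate 1 (0.0578) or 2 (0.0556).

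Sulf2 encodes an extracellular enzyme that removes sulfates of the same position from the chain. It measured 19.0, 19.2 and 25.6 FPKM in the f/f libraries against 54.7, 126 and 99.5 in the d/d libraries, a 4.40-fold rise (log2 fold change 2.02, SE 0.32, limma adjusted p = 0.0241). Sdc1, the syndecan 1 gene, whose product carries heparan sulfate on epithelial cells, stood at 18.0, 19.7 and 22.9 against 40.8, 75.1 and 81.2 FPKM, a 3.26-fold rise (log2 fold change 1.60, adjusted p = 0.0287). Gpc3, a glypican gene, fell 2.97-fold, from 16.0, 15.7 and 18.4 FPKM to 4.62, 6.70 and 5.51 (log2 fold change -1.43, SE 0.16, adjusted p = 0.0118). None of these 3 overlapped between the genotypes. Without f/f replicates 1, 2 and 3 the adjusted p was 0.121, 0.118 and 0.0825 for Sulf2, 0.136, 0.132 and 0.0970 for Sdc1, and 0.0867, 0.0833 and 0.0660 for Gpc3. Ext2, a polymerase gene of the chain, and Sdc2 had adjusted p = 0.0610 and 0.0589, both with higher values in every d/d library.

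Partners of HAND2 were described by a list of 12 genes, of which 10 were tested and 0 were called by limma (7.3% of all genes were called). Of the 10, 5 were at an unadjusted p under 0.05, a level that 26.7% of all genes tested reached. Without overlap, 4 were lower and 1 was higher in d/d, where 17.8% and 18.1% of all genes tested were. The median log2 fold change was -0.27. Its paralog Hand1 was listed at 0 in all 6 libraries. The E-protein genes, whose products pair with HAND2 on E-boxes, were each lower in every d/d than in every f/f library by small amounts. Tcf12 stood at 28.2 ± 0.512 FPKM in f/f and 22.6 ± 0.966 in d/d (limma adjusted p = 0.123), Tcf3 at 44.4 to 48.3 against 30.1 to 40.6 (adjusted p = 0.155), and Tcf4 at 45.05 to 56.5 against 24.5 to 42.2 (adjusted p = 0.182). Twist2, another helix-loop-helix factor gene of mesenchyme, was also lower in every d/d library (adjusted p = 0.109). Id1 encodes an inhibitor that binds E-proteins. It measured 38.0, 39.9 and 51.4 FPKM in the f/f libraries against 119, 77.0 and 221 in the d/d libraries, and its log2 fold change, 1.55, was not called (adjusted p = 0.0626, 0.0238 without d/d replicate 2, and 0.0462 with weights by genotype).

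Around Hand2, 12 regulators of the stroma and its hedgehog input were tested, of which 4 were lower (Hoxa10, Hoxa11, Gli1 and Ptch1) and 1 was higher (Wnt4), with a median log2 fold change of -1.24. Of 9 epithelial response and proliferation genes, 3 were higher (Muc1, Ltf and C3) and 0 lower, with a median of 0.69. Without f/f replicates 1, 2 and 3 the calls in the first list were 0, 1 and 1, all lower, and those in the second 0, 0 and 1. Both lists were drawn up with these directions known. Over the 9 lists of the pathway 111 genes were listed, 87 were tested and 15 were called, 8 of them in these 2 lists. The other 7 lists gave 7 of 66 (10.6%, where 7.3% of all genes were called). Over all 9, without f/f replicates 1, 2 and 3, the called number was 0, 1 and 3.

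The genes most like Hand2 and Fgf1 in pattern were found by the root mean square difference, over the 6 libraries, of log2(FPKM + 1) centered on the f/f mean, among 7698 tested genes with an f/f mean of at least 10 FPKM, clone and locus names left out. Nearest to Hand2 were Septin4 (0.13), Cnn3 (0.13), Wt1 (0.15), Fah (0.16) and Bmp7 (0.17). Each shared with Hand2 the order of the d/d libraries, replicate 1 above 2 above 3. Wt1, which encodes a zinc finger factor also used here as a mesothelium marker, measured 75.3, 66.3 and 56.8 FPKM in the f/f libraries against 30.9, 25.9 and 13.4 in the d/d libraries. The other 3 mesothelium markers did not follow it: Msln was at 10.6, 8.12 and 0.159 FPKM in d/d and at or under 0.656 in f/f. Nearest to Fgf1 were Gap43 (0.25), Asl (0.26), Usp2 (0.27), Slc6a14 (0.28) and Lama2 (0.28). All 10 of these genes were lower in every d/d than in every f/f library, where 17.8% of all genes tested were. They were picked for likeness to Hand2 or Fgf1 in these same 6 libraries, so this and the shared order largely follow from the choice. This likeness is a description over 6 libraries.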

How the data were processed

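Each library has its own table of 21936 genes. The deposited values were read as FPKM, a unit inferred from the values and the listed tools because no header names it. The submitters' processing notes list HISAT2 2.2.1, Cufflinks 2.2.1 and both mm9 and mm10 as builds. Build roles, annotation and strandedness were not given in the sources used. Coordinates come from RefSeq on GRCm38 and exon overlaps from GENCODE M21, matched by gene.

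Of rows sharing a symbol the highest was kept, which removed 36. Genes with at least 1 FPKM in at least 3 of 6 libraries (12979) entered limma 3.58.1 (R 4.3.3) on a log2 scale after adding 1 (genotype model, intensity trend, two-sided, Benjamini-Hochberg over all genes tested, threshold 0.05). Single values also had an exact permutation test. On simulated data with 200 of 12979 genes changed and each genotype's own spread, 47.5%, 81.2% and 92.7% of changes of 1, 2 and 3 (log2) were recovered among genes with a mean log2 above 2.

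All 10 members are named. Of each pathway list, called genes and up to 4 more by unadjusted p could be named, and all FGF ligands and receptors. Dusp5, the Sprouty genes, Etv4, Etv5, Tcf4, Hand1, Msln and the single cell type markers were named after their values were seen. Members and lists were chosen with earlier results of these data known. Alternatives were another pseudocount, other filters, median-ratio scaling, weights by genotype, no trend, a replicate block and leaving out each library. The absolute depth is unknown, so no counting interval is given.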

Additional observations from a re-analysis of the deposited data

How the results depend on the processing

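Across all genes 947 were called, and the number was 666 to 966 with another pseudocount, filter or scaling, weights by genotype or no trend, 100 with the replicate block, and 0 to 1367 with 1 library left out (0 without f/f replicate 1, where 2292 genes had an unadjusted p under 0.05 in limma). Of the members 2 were called, Hand2 and Fgf1, and 2 in each of the same 6 settings. The number was 0 with the replicate block (adjusted p = 0.0531 and 0.0504) and 0 to 4 with 1 library left out: 0 without any 1 of the f/f libraries and 4 without d/d replicate 1. Of the pathway genes 15 were called, 14 to 17 in the same 6 settings, 5 with the replicate block (Hs6st1, Hoxa10, Hoxa11, Wnt4 and Ltf) and 0 to 21 with 1 library left out. With the block the adjusted p was 0.107 for Fgfrl1, 0.105 for Fgfbp3, 0.0784 for Flrt2, 0.0570 for Sulf2, 0.0560 for Sdc1, 0.0564 for Gpc3, 0.0550 for Krt7 and 0.0879 for Epcam. The share of Fgfr2 differed by -21.3 percentage points, by -21.2 with Fgfr4 included and by -31.4 to -9.06 with 1 library left out. Fgf10, Fgf18 and Fgfr3 fall below the filter of 1 FPKM in all 6 libraries and have no value there. Wherever the 9 tested members had a value, their directions were kept except for Fgfr3 without f/f replicate 2 (log2 fold change 0.0224, and -0.27 to 0.0224 over the fits with 1 library left out). The share of Fgfr3, higher by 0.159 points and at -0.0907 to 0.538 with 1 library left out, turned to -0.0418 once f/f replicate 3 was left out and to -0.0907 once d/d replicate 2 was. The cause of these changes was not tested. Same-numbered libraries correlated at -0.02, 0.02 and -0.02 in their deviations from the group means, and none correlated best with its own number. Such correlations, around means of 3 libraries, cannot settle whether replicate numbers pair the libraries. Fgf9, the ligands listed at 0 and Fgfr4 lie where a few fragments set the value, so their differences are limited by depth.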
